A study of Homo sapiens with 8 samples.

Results

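The BCL2 family decides whether a stressed cell opens its mitochondria to release death signals. Its transcripts were measured here in cells that had lost part of their XBP1 mRNA under endoplasmic reticulum (ER) stress. The 10 members were chosen by symbol and matched through NCBI Gene IDs to 10 of the 18555 rows of a gene count table. They are 3 anti-apoptotic genes (BCL2, BCL2L1 and MCL1), 2 effectors (BAX and BAK1) and 5 genes for BH3-only proteins (BID, BCL2L11, PMAIP1, BBC3 and BIK). All 10 passed the filter on low counts, which left 14337 genes for testing.

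RNA-seq covered 6 libraries of cells labelled HepG2, a hepatocellular carcinoma line. In the siXBP1 group (3 libraries) an siRNA against XBP1 had been transfected, and in the siNC group (3 libraries) an Allstar control siRNA. Both groups then received 30 nM thapsigargin for 3 hours, 2 days after transfection, and none of the 6 libraries lacked it. Thapsigargin blocks the calcium pump of the ER, and XBP1, once spliced by IRE1, encodes a transcription factor of the unfolded protein response. The comparison therefore concerns partial loss of XBP1 mRNA in stressed cells of a single line.

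Anti-apoptotic members hold the effectors BAX and BAK1 in check at the mitochondrial outer membrane. BH3-only proteins bind into a groove of the anti-apoptotic members or activate the effectors directly, and free effectors form the pore that lets out cytochrome c. Under prolonged ER stress, CHOP and ATF4 raise transcripts of several BH3-only genes, and BCL2 proteins also act at the ER membrane, on calcium release.

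XBP1 fell in the siXBP1 libraries, with 290, 299 and 276 CPM, counts scaled by library size, against 552, 502 and 500 CPM in the siNC libraries. The log2 fold change was -0.84 (SE 0.08, edgeR adjusted p = 0.0331). The call ended without siXBP1 replicate 1 (adjusted p = 0.475), siXBP1 replicate 2 (0.284), siNC replicate 2 (0.175) or siNC replicate 3 (0.213). It stood without siXBP1 replicate 3 (edgeR adjusted p = 0.0327) or siNC replicate 1 (0.0442). With 1 library left out the log2 fold change of XBP1 ran from -0.88 to -0.80. DESeq2 on all 6 libraries called XBP1 too (adjusted p = 1.58e-12). Library totals ran from 38209972 to 38890070 counts. The libraries differed most along a first principal component with 59.1% of the variance, whose ends were siXBP1 replicate 3 and siNC replicate 1. The markers went against the labelled line: of 13 hepatocyte markers 8 had a row, and 7 of these stayed below 1 CPM in every library, AFP at no more than 0.155 CPM and HNF4A at no more than 0.523 CPM. The summed hepatocyte markers lay between 2.22 and 3.77 CPM in siXBP1 libraries and between 2.21 and 2.62 CPM in siNC libraries. Of the 7 markers of other epithelial lines, 3 averaged at least 1 CPM. The 7 summed to 4171 to 5297 CPM in siXBP1 libraries and 4264 to 5685 CPM in siNC libraries. Nearly all of this came from KRT17 and KRT7, with KRT14 at no more than 12.0 CPM. CDH1, EPCAM, KRT5 and TP63 reached no more than 0.624, 0.103, 0.103 and 1.15 CPM in any library. Fibroblast markers (4 of 5 with a mean of at least 1 CPM) summed to 193 to 224 CPM in siXBP1 libraries and 189 to 220 CPM in siNC libraries. Endothelial markers summed to 7.4 to 10.2 CPM in siXBP1 and 8.52 to 9.69 CPM in siNC libraries, and leukocyte markers, nearly all from CD68, to 40.5 to 43.5 CPM in siXBP1 and 37.5 to 44.1 CPM in siNC libraries. The part of these genes in the results below was not tested, and in bulk RNA fewer cells of a type and less RNA per cell cannot be told apart.

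BCL2L11 was the only one of the 10 members whose siXBP1 libraries all lay above all siNC libraries, as was found for 5.01% of all genes tested. None of the 10 members passed the test over all genes. The estimated log2 fold changes ran from -0.13 for the effector BAX to 0.59 for the BH3-only gene BIK. The count of called members was 0 of 10, where 0.00697% of all genes tested were called (1 gene, XBP1 itself). Estimates were higher in siXBP1 for 8 of 10 members and lower for 2, where 52.8% of all genes had a higher estimate. The median log2 fold change was 0.13 over the family and 0.01 over all genes tested. Every adjusted p of the 10 members was 0.9998 by edgeR's quasi-likelihood test, so that the values below are given as estimates with 95% intervals.

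Promoter windows are shown for BCL2L11, as the member whose groups did not overlap, and for PMAIP1, BBC3 and BAX, whose levels varied most between libraries after BIK. Each runs from 250 bases before to 50 bases after a RefSeq transcription start (GRCh38.p14), 5′ to 3′ on the gene's strand. Capitals mark ACGT, the core of the element that XBP1s and related bZIP factors recognise, and CCACG on either strand, the part of the ER stress response element shared by XBP1s and ATF6.
BCL2L11 promoter, chr2:111120664-111120963, plus strand: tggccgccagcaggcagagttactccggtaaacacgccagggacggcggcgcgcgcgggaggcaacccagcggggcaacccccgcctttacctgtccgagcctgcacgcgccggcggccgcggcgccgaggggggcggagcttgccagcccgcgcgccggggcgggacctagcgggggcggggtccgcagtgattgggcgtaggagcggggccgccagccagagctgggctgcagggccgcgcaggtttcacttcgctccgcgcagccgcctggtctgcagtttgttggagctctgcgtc
PMAIP1 promoter, chr18:59899746-59900045, plus strand: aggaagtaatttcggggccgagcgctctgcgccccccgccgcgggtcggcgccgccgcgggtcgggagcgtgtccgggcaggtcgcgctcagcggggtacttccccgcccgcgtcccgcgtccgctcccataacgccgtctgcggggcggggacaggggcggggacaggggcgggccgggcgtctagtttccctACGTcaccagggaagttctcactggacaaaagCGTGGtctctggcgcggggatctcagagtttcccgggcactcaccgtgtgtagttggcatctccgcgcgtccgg
BBC3 promoter, chr19:47232618-47232917, minus strand: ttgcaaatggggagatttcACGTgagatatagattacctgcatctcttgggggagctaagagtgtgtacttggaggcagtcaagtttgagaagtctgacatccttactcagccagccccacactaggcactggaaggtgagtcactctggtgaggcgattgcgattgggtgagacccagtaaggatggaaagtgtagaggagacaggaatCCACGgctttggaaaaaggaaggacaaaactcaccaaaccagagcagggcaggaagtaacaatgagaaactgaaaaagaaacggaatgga
BAX promoter, chr19:48954625-48954924, plus strand: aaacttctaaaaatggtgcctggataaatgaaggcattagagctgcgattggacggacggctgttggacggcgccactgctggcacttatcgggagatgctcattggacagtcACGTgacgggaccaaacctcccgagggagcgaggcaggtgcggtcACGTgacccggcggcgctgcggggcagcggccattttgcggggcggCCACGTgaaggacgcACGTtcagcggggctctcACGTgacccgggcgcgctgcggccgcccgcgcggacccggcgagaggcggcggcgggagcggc

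The BCL2L11 window held neither motif. The PMAIP1 window held ACGT once, 56 bases before the start, and CCACG once, on the minus strand, 24 bases before it. The BAX window held ACGT 5 times, between 137 and 13 bases before the start, and 1 of these overlaps its only CCACG, which begins 46 bases before the start. The BBC3 window held ACGT 231 bases and CCACG 40 bases before the start. Windows were found for 8 of the 10 members, 13 windows in all, since BCL2L1 has 2 and BID has 5 that overlap one another in part. ACGT lay in a window of 4 of these 8 members (5 of 13 windows), and in 33.3% of all 35116 windows. CCACG lay in 4 of the 8 members (7 of 13 windows), and in 38.1% of all windows. The longer elements TGACGTGG (the unfolded protein response element core; 0.729% of all windows) and the ER stress response element, written CCAAT, 9 bases, CCACG (0.0769%), lay in 0 of 13. Both strands were searched, and a match describes letters in these windows, not binding.

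Among the BH3-only genes, BCL2L11 (BIM, which binds all anti-apoptotic members; chromosome 2, 111120914 to 111168445) had 28.4, 28.7 and 30.0 CPM in the siXBP1 libraries, against 21.5, 26.1 and 21.0 CPM in the siNC libraries. The siXBP1 libraries lay close together and above each siNC library, with siNC replicate 2 nearest to them. The means were 29.0 ± 0.87 CPM in siXBP1 and 22.9 ± 2.81 CPM in siNC (SD, n = 3 each). The log2 fold change was 0.35 (SE 0.12, 95% interval 0.07 to 0.62, edgeR adjusted p = 0.9998). Without adjustment its p was 0.0187, and it was the 1 of 10 members with an unadjusted p under 0.05, where 3.61% of all genes tested had one. A gap of this kind upwards was found for 5.01% of all genes tested, and a gap downwards for 3.74% of genes and 0 of 10 members. The 1 member of 10 gives no result about the family. With 1 library left out its log2 fold change stayed between 0.28 and 0.45.

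BIK (chromosome 22, 43110750 to 43129712), an ER-associated BH3-only protein, was the least counted member, with 66 to 167 counts a library. It had 3.46, 4.31 and 2.59 CPM in siXBP1 libraries, against 2.73, 1.70 and 2.47 CPM in siNC libraries. The groups overlapped through siXBP1 replicate 3, which lay below siNC replicate 1. Its log2 fold change was 0.59 (SE 0.27, 95% interval -0.02 to 1.21), with means of 3.45 ± 0.86 CPM in siXBP1 and 2.30 ± 0.53 CPM in siNC (SD, n = 3 each). The lowest count carries a counting error of 12.3%, less than the 1.66-fold range within siXBP1 and the 1.61-fold range within siNC. With 1 library left out the estimate ran from 0.39 to 0.75.

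PMAIP1 (NOXA, the BH3-only protein that neutralises MCL1; chromosome 18, 59899996 to 59904305) had 78.1, 101 and 126 CPM in siXBP1 libraries, against 70.6, 89.3 and 97.4 CPM in siNC libraries. Its highest value was that of siXBP1 replicate 3 and its lowest that of siNC replicate 1, the ends of the first component, and siXBP1 replicate 1 lay below siNC replicates 2 and 3. Its log2 fold change was 0.25 (SE 0.18, 95% interval -0.15 to 0.65). With 1 library left out it ran from 0.06 (without siXBP1 replicate 3) to 0.41 (without siXBP1 replicate 1), and was 0.12 without siNC replicate 1.

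BBC3 (PUMA, a p53-responsive BH3-only protein; chromosome 19, 47220824 to 47232860) had 12.9, 8.38 and 6.70 CPM in siXBP1 libraries, against 12.2, 6.71 and 7.30 CPM in siNC libraries. Replicate 1 of each group stood well above the other libraries, and the groups overlapped throughout. Within a group the highest value was 1.92 times the lowest in siXBP1 and 1.82 times in siNC, while the means, 9.31 ± 3.19 CPM in siXBP1 and 8.73 ± 3.01 CPM in siNC (SD, n = 3 each), differed 1.07-fold. The log2 fold change of 0.09 (95% interval -0.54 to 0.72) turned negative without siXBP1 replicate 1 (-0.21), siNC replicate 2 (-0.08) or siNC replicate 3 (-0.03), and was 0.15 without siXBP1 replicate 2, 0.27 without siXBP1 replicate 3 and 0.41 without siNC replicate 1.

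BID, which caspase-8 cleaves to carry death receptor signals to mitochondria (chromosome 22, 17734138 to 17774665), had 25.6, 33.1 and 26.4 CPM in siXBP1 libraries, against 29.0, 25.6 and 26.8 CPM in siNC libraries. Only siXBP1 replicate 2 lay above the siNC range. On the log2 scale the fold change was 0.07 (95% interval -0.23 to 0.37), and ran with 1 library left out from -0.07 (without siXBP1 replicate 2) to 0.14 (without siXBP1 replicate 1).

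**Figure D1:**
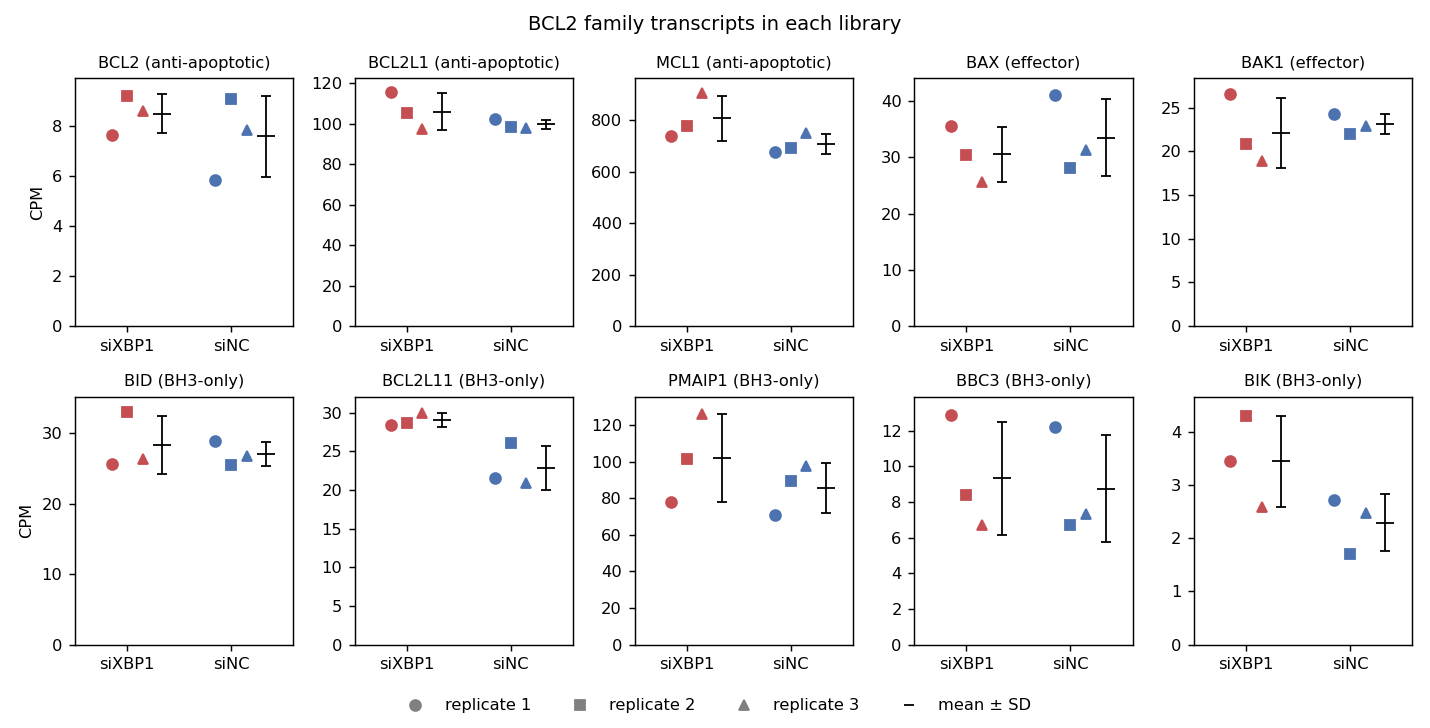
CPM of each member (y axis, from 0) in the 3 siXBP1 libraries and the 3 siNC libraries. Each symbol is 1 library, its shape the replicate number, and bars show mean ± SD (n = 3). The groups lie apart for BCL2L11, and BBC3 and BAX are highest in the libraries numbered 1 within each group.

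The anti-apoptotic genes had estimates above 0 in this fit, none past the test. MCL1, whose short-lived protein holds BAK1 and binds NOXA and BIM (chromosome 1, 150574558 to 150579610), had 739, 778 and 905 CPM in siXBP1 libraries, against 678, 692 and 750 CPM in siNC libraries. The groups overlapped only in that siXBP1 replicate 1 lay below siNC replicate 3. MCL1 had a log2 fold change of 0.19 (SE 0.10, 95% interval -0.02 to 0.41, unadjusted p = 0.0697), a ratio of means of 1.14. At 26351 to 34571 counts a library the counting error is at most 0.616%, well below the 1.22-fold range within siXBP1. With 1 library left out the estimate ran from 0.09 (without siXBP1 replicate 3) to 0.26 (without siXBP1 replicate 1).

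BCL2L1, whose main product BCL-XL restrains BAX and BAK1 (chromosome 20, 31664452 to 31723963), had 116, 105 and 97.1 CPM in siXBP1 libraries, against 102, 98.3 and 98.0 CPM in siNC libraries. Both the highest and the lowest value of the 6 libraries were siXBP1 values. BCL2L1 had a log2 fold change of 0.09 (SE 0.10, 95% interval -0.13 to 0.31). It was 0.03 without siXBP1 replicate 1 and 0.14 without siXBP1 replicate 3, the ends of its range with 1 library left out. Gene counts do not separate the long isoform from the short, pro-apoptotic one.

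BCL2, the founding member, which acts at both mitochondria and the ER (chromosome 18, 63123346 to 63320090), had 7.67, 9.20 and 8.64 CPM in siXBP1 libraries, against 5.86, 9.08 and 7.87 CPM in siNC libraries. Apart from the low siNC replicate 1, the groups covered the same range. BCL2 had a log2 fold change of 0.16 (95% interval -0.25 to 0.58), which ran with 1 library left out from 0.0033 (without siNC replicate 1) to 0.30 (without siNC replicate 2) and was 0.09 without siXBP1 replicate 2.

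The effectors had the family's 2 estimates below 0. BAX (chromosome 19, 48954875 to 48961798) had 35.5, 30.5 and 25.6 CPM in siXBP1 libraries, against 41.2, 28.0 and 31.4 CPM in siNC libraries. BAK1 (chromosome 6, 33572552 to 33580276) had 26.6, 20.8 and 18.9 CPM in siXBP1 libraries, against 24.3, 22.0 and 23.0 CPM in siNC libraries. Both genes had their lowest value in siXBP1 replicate 3, and the groups overlapped. The log2 fold changes were -0.13 for BAX (95% interval -0.51 to 0.25) and -0.06 for BAK1 (-0.38 to 0.26). Each sign rested on a single library: BAX had 0.04 without siNC replicate 1, and BAK1 had 0.03 without siXBP1 replicate 3. At the other end BAX had -0.26 without siNC replicate 2, and BAK1 had -0.21 without siXBP1 replicate 1.

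**Figure D2:**
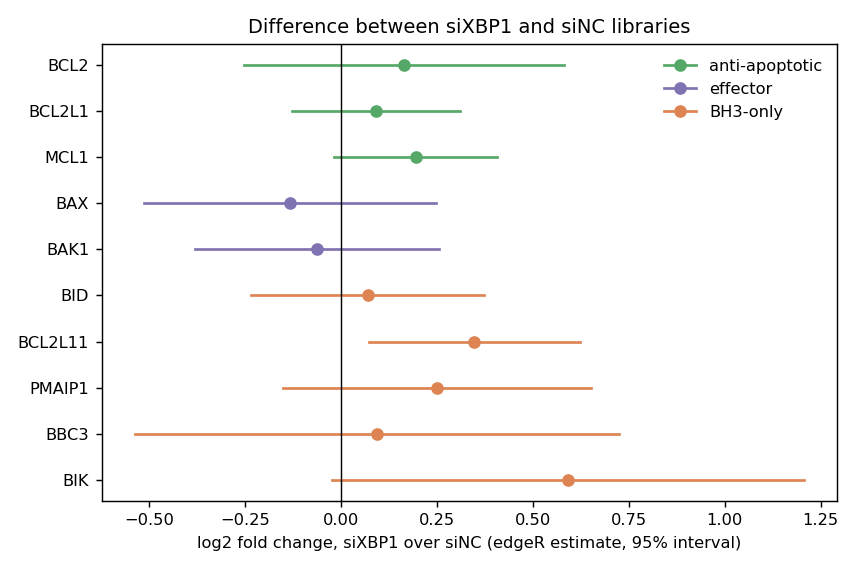
Log2 fold change of each member, siXBP1 over siNC (x axis), as estimated by edgeR from 3 libraries a group. Points are estimates, lines 95% intervals and colours roles. The interval lies above 0 for BCL2L11 (0.07 to 0.62) and spans 0 for the other 9.

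Expressed as fold changes, the 95% intervals show which differences these libraries still allow. They ran from 0.916 to 1.24 for BCL2L1 and from 0.987 to 1.33 for MCL1, the tightest, and from 0.984 to 2.31 for BIK, which had the highest upper bound. For BAX the interval was 0.70 to 1.19 and for BAK1 0.768 to 1.19.

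The range within at least 1 group exceeded the difference between group means in nearly the whole family, as in nearly all genes. For 9 of 10 members, all but BCL2L11, the highest over the lowest CPM within at least 1 group exceeded the fold between the group means, as it did for 95.3% of all genes tested. A range of 3 libraries and a fold between means are unlike measures. Within siNC alone the range was smaller than that fold for MCL1 (1.11 against 1.14) and BCL2L1 (1.04 against 1.06). BAX, BAK1 and BBC3 shared an arrangement: the libraries numbered 1 in each group were the highest 2 and siXBP1 replicate 3 the lowest. PMAIP1 and MCL1 had the opposite ends, with siXBP1 replicate 3 highest and siNC replicate 1 lowest. The slope of log2 CPM on the score of the first component, scaled to unit length, was 0.81 for BBC3, 0.52 for BAX and 0.28 for BAK1, against -0.57 for PMAIP1 and -0.23 for MCL1, so the 2 sets ran along it in opposite directions. What that component reflects was not tested. BID and BIK were both highest in siXBP1 replicate 2 and lowest in siNC replicate 2.

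**Figure D3:**
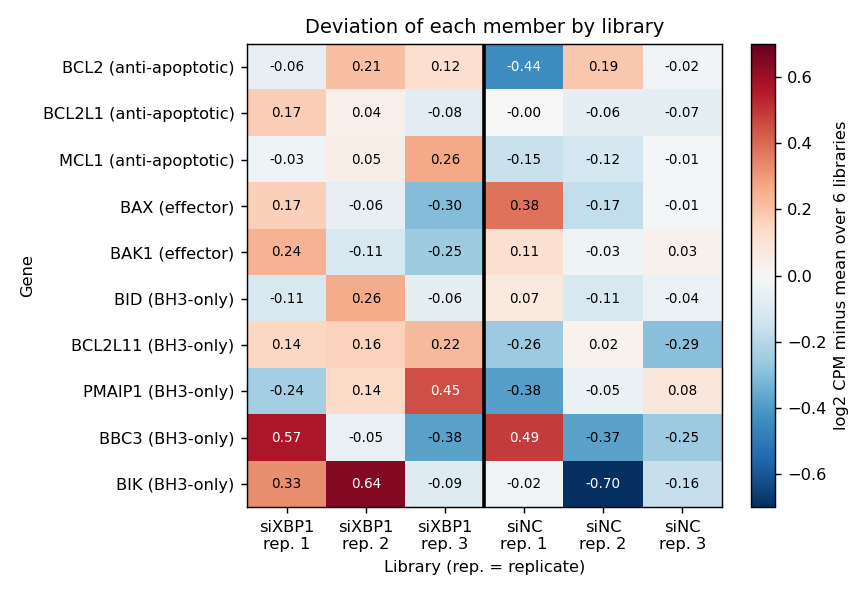
Log2 CPM of each member in each library minus its mean over the 6 libraries (colour and printed value), with siXBP1 libraries left of the line and siNC libraries right of it. BBC3 runs from 0.57 in siXBP1 replicate 1 to -0.38 in siXBP1 replicate 3, and PMAIP1 in the same libraries from -0.24 to 0.45.

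Leaving out both end libraries, an alternative chosen after seeing the data, left 2 libraries a group. Their scores on the first component were 0.24 and 0.14 in siXBP1, against -0.29 and -0.08 in siNC. In this fit that component and the group therefore cannot be told apart. Of the 10 members 1 then passed: BBC3 was higher in siXBP1 (log2 fold change 0.60, SE 0.18, edgeR adjusted p = 0.0472), where 4.87% of all genes tested were called. BIK had 0.90 (SE 0.32, adjusted p = 0.0928) and BCL2L11 had 0.28 (adjusted p = 0.195). BCL2 (-0.00029), BAX (0.15), BAK1 (0.08) and PMAIP1 (-0.05) changed sign against the fit of all 6 libraries. The groups did not overlap for 4 members (BCL2L1, BCL2L11, BBC3 and BIK, all higher in siXBP1), beside 48.8% of all genes tested. When the first-component score entered the fit as a covariate, also chosen after seeing the data, 0 of 10 members passed, where 1.2% of all genes did. BCL2L11 then had 0.32 (SE 0.09, adjusted p = 0.0992), BIK 0.70 (0.225), MCL1 0.16 (0.272) and BBC3 0.27 (0.504). That score was computed from the same libraries, so these p-values may be too small. DESeq2 called 0 of 10 members and 0.105% of all genes.

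**Figure D4:**
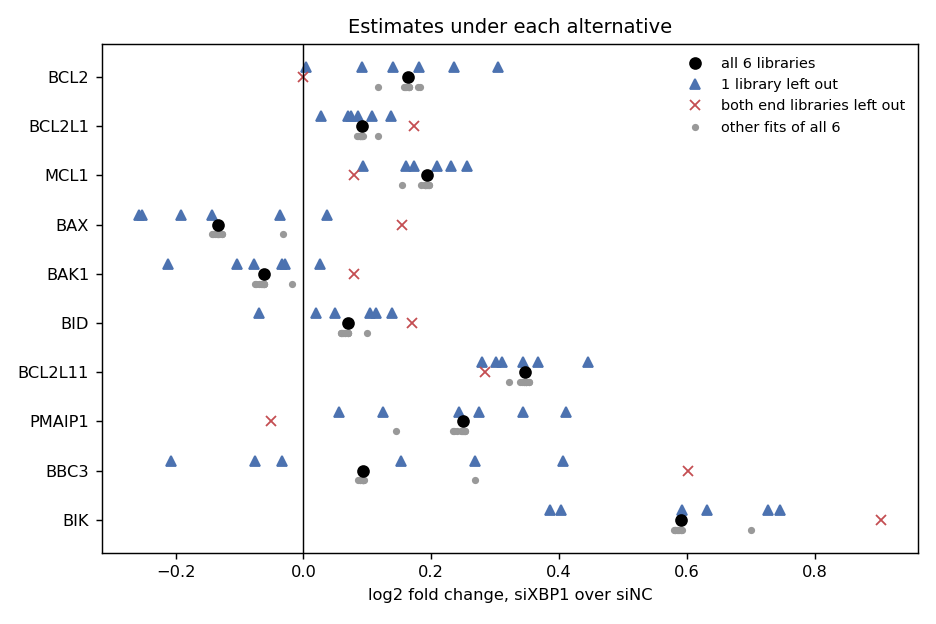
Log2 fold change of each member, siXBP1 over siNC (x axis), under each alternative. Black points use all 6 libraries, triangles leave out 1, crosses leave out both end libraries of the first component and grey points are other fits of all 6. BCL2L1 (0.03 to 0.17), MCL1 (0.08 to 0.26), BCL2L11 (0.28 to 0.45) and BIK (0.39 to 0.90) stay above 0 throughout.

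Ratios of counts of 2 members within a library do not depend on library scaling, and were compared between groups without a test. The log2 ratio of MCL1 over PMAIP1, an inhibitor and the BH3-only protein that neutralises it, was 3.24, 2.94 and 2.84 in siXBP1 libraries, against 3.26, 2.95 and 2.95 in siNC libraries. The difference of the means was -0.04, within the spread (pooled SD 0.20). BCL2L1 over BAX was 1.70, 1.79 and 1.92 in siXBP1 libraries, against 1.31, 1.81 and 1.64 in siNC libraries, a difference of 0.22 with overlapping groups and a pooled SD of 0.20. BCL2L1 over BIK was 5.06, 4.61 and 5.23 in siXBP1 libraries, against 5.23, 5.86 and 5.31 in siNC libraries. This ratio was lower in siXBP1 by 0.50 on average (-0.50, pooled SD 0.33), and the groups were separated by 0.0016. The nearest libraries, siXBP1 replicate 3 and siNC replicate 1, had 99 and 106 BIK counts. Counting error at such counts is far larger than this gap, so the separation cannot be told from overlap. MCL1 over BBC3 differed by 0.10 (pooled SD 0.57) and BCL2L1 over MCL1 by -0.10 (pooled SD 0.21), both with overlapping groups. With 1 library left out 3 of the 5 differences changed sign: MCL1 over PMAIP1 ran from -0.16 to 0.06, MCL1 over BBC3 from -0.20 to 0.42 and BCL2L1 over MCL1 from -0.23 to 0.04. BCL2L1 over BAX ran from 0.08 to 0.33 and BCL2L1 over BIK from -0.63 to -0.30.

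**Figure D5:**
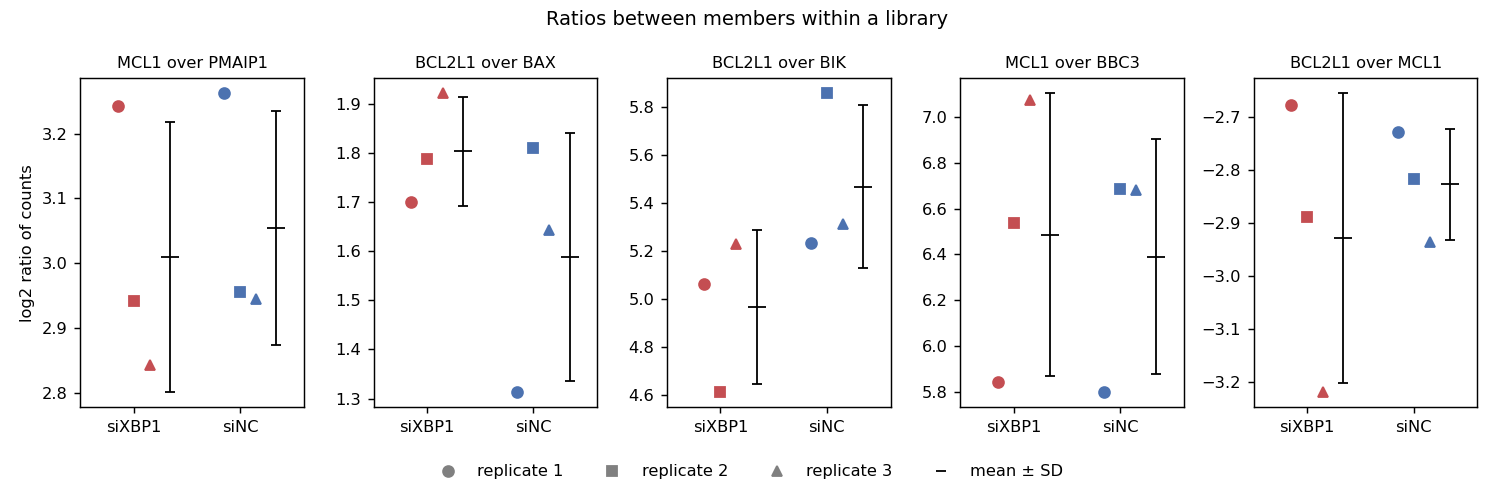
Log2 ratio of the counts of 2 members within each library (y axis, which does not start at 0 and differs between panels), for siXBP1 and siNC libraries. Symbols are libraries, shapes replicate numbers and bars mean ± SD (n = 3). MCL1 over PMAIP1 is highest in the libraries numbered 1 of both groups, at 3.24 in siXBP1 and 3.26 in siNC.

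The genes whose levels over the 6 libraries were most like those of each member, by Pearson's r of log2 CPM among 10744 others with a mean of at least 5 CPM, give a description of these libraries only. They were CAV2 for MCL1 (r = 0.995), CDK16 for BCL2L1 (0.991), KIAA1958 for BCL2 (0.991), CARD10 for BAX (0.998) and MED16 for BAK1 (0.993). For BH3-only genes they were ENC1 for BCL2L11 (0.990), TADA1 for PMAIP1 (0.998), PHC2 for BBC3 (0.992) and STAG3L4 for BID (0.985). Each of these 9 members had a gene at 0.985 or above, and BIK, below 5 CPM, was not compared.

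Genes around the family were counted in 6 lists, of whose 78 tested genes edgeR and DESeq2 both called 0. An unadjusted p under 0.05 was found for 4 of them by edgeR, where 3.61% of all genes tested had one. They were FAS and ATF3, higher in siXBP1, and BNIP3 and TRIM17, lower. TRIM17 averaged 0.364 CPM in siXBP1 and 0.825 CPM in siNC and was named after its values were seen. Groups without overlap in these lists stand beside 5.01% of all genes tested with a gap upwards and 3.74% with a gap downwards. Among the 7 tested of 11 BCL2 homologues outside the 10 members, 2 had higher and 5 lower estimates in siXBP1 (median log2 fold change -0.15). Of these, BOK, an effector-like protein of the ER, had 12.2 CPM in siXBP1 and 14.4 CPM in siNC (-0.24, SE 0.21), and BCL2L12 33.1 CPM in siXBP1 and 37.0 CPM in siNC (-0.16, SE 0.18), both with overlap. The 1 homologue whose groups did not overlap, BCL2L13, a mitochondrial protein named after its values were seen, had 85.1 CPM in siXBP1 and 77.6 CPM in siNC (0.14, SE 0.10). In the mitochondrial death pathway, which runs from the pore to caspases, 9 of 18 estimates were higher and 9 lower (median -0.03). BIRC3, an inhibitor of apoptosis and a textbook NF-kB target, had 514 CPM in siXBP1 and 401 CPM in siNC (0.36, SE 0.18), and ENDOG, a mitochondrial nuclease, 8.39 CPM in siXBP1 and 9.85 CPM in siNC (-0.23, SE 0.23). Groups did not overlap for VDAC1 and VDAC3, channels of the mitochondrial outer membrane, at 341 and 122 CPM in siXBP1, against 375 and 132 CPM in siNC. These 2 were named after their values were seen.

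In the death receptor list 9 of 13 estimates were higher and 4 lower (median 0.05). FAS, a death receptor, had 25.6 CPM in siXBP1 and 20.1 CPM in siNC, without overlap (log2 fold change 0.35, SE 0.13, edgeR adjusted p = 0.9998), and CASP8 had 44.8 CPM in siXBP1 and 40.3 CPM in siNC (0.16, SE 0.11). TNFRSF10B (DR5), a receptor that CHOP induces under ER stress and named here for that role, had 230 CPM in siXBP1 and 208 CPM in siNC, also without overlap (0.15, SE 0.08). The groups lay apart too for TNFRSF10C, a decoy receptor named after its values were seen, which had 2.75 CPM in siXBP1 and 2.30 CPM in siNC (0.26, SE 0.21). Among 14 upstream regulators of BH3-only genes, 8 estimates were higher and 6 lower (median 0.05). ATF3, a stress-induced transcription factor, had 107 CPM in siXBP1 and 79.5 CPM in siNC without overlap (0.42, SE 0.11, adjusted p = 0.9998), and passed with the covariate (0.47, adjusted p = 0.000133). So did JUN, an AP-1 subunit named after its values were seen (0.34, adjusted p = 0.00602), which had 147 CPM in siXBP1 and 124 CPM in siNC with overlap. These 2 of 14 genes stand beside 1.2% of all genes tested. FOXO1, of the FOXO factors that act on BCL2L11, had 25.0 CPM in siXBP1 and 20.9 CPM in siNC without overlap (0.26, SE 0.12). DDIT3 (CHOP) and ATF4, named for their role, had 312 and 763 CPM in siXBP1, against 329 and 800 CPM in siNC, with overlap.

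Genes that set the stability of MCL1 and BH3-only proteins had 3 of 10 estimates higher and 7 lower (median -0.01). USP9X, a deubiquitinase of MCL1, had 281 CPM in siXBP1 and 270 CPM in siNC (0.06, SE 0.15). RNF7, a subunit of cullin-RING ligases, had 45.1 CPM in siXBP1 and 47.1 CPM in siNC (-0.06, SE 0.16). These 2 had the largest absolute estimates among the list's genes averaging 5 CPM or more. TRIM17, far below that level at 0.364 CPM in siXBP1 and 0.825 CPM in siNC, had the largest of the list (-1.17, SE 0.42), without overlap. Partners at the ER and mitochondrial membranes had 6 of 16 estimates higher and 10 lower, with 1 of the 17 genes not tested (median -0.02). BNIP3, a mitophagy receptor and hypoxia target with a BH3-like stretch, had 63.0 CPM in siXBP1 and 76.6 CPM in siNC without overlap (-0.28, SE 0.11), and ITPR2, an ER calcium release channel, had 42.8 CPM in siXBP1 and 38.8 CPM in siNC (0.14, SE 0.21). The adjusted p was 0.9998 by edgeR for each tested gene of these lists.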

How the data were processed

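RNA was sequenced from 6 libraries made with a TruSeq stranded kit, per the labels' protocols. The deposited table holds raw counts per NCBI Gene ID (18555 rows, not normalized). Alignment with STAR 2.5.2a to hg38 and counting with featureCounts 1.5.0 (Subread) are named in the submitters' processing notes, while annotation, strand setting and handling of read pairs were not given in the sources used here. Of low counts (1 to 40) 75.8% to 80.5% were even, so both mates of a pair may have been counted and counting errors may be understated. The 2 ChIP-seq samples were not analysed here. RefSeq tables of GRCh38.p14 gave names for 18526 rows, and the promoter windows. Genes that overlap members had no row here, so reads of such partners cannot be told apart. No transcript lengths were at hand, so levels are not compared between genes.

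Groups came from the sample titles. Genes kept by filterByExpr were scaled with TMM and tested with edgeR 4.0.16 in R 4.3.3 (quasi-likelihood, two-sided, group as the only term, 4 residual degrees of freedom). Benjamini-Hochberg adjustment ran over all 14337 genes, with a threshold of 0.05. SE is the log2 fold change divided by the square root of F, and the 95% interval uses the t distribution on the test's degrees of freedom. The first component used log2(CPM + 0.01) of the 11528 genes averaging 100 counts or more. Alternatives were other scalings and filters, DESeq2 1.42.0 on the same genes, limma-voom (limma 3.58.1), the replicate number as a block, each library left out, a threshold of 0.01 and, for ratios, pseudocounts of 0.5 and 5. The covariate, both end libraries left out and halved counts were chosen after seeing the data. The test was checked on 3 simulated data sets, in which genes were drawn independently, without a shared component as in these libraries. Each held 200 changed genes, with absolute log2 fold changes of 0.5, 1 or 2, none of them among genes with the lowest counts. The test called 22.1% of genes with a true absolute log2 fold change of 0.5 and 88.5% of those with 1. The adjustment is less strict where more genes differ, and the fit of the 6 libraries called 1 gene. These shares may therefore be too high for the data themselves. A count of 0 called members therefore does not show that no member differed.

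The members and lists were chosen with earlier results of these data known. The rule for named genes takes the 10 members, XBP1 and, for each list, called genes. In a list without called genes it takes the 2 with the largest absolute log2 fold change among genes averaging 5 CPM or more. Nothing in the labels tells whether the replicates were cultured separately. The p-values thus reflect only how far these samples spread, which may be technical. Counting errors cover counting alone.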

Additional observations from a re-analysis of the deposited data

How the results depend on the processing

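The count of called members was 0 under every alternative run except without both end libraries of the first component. In that fit it was 1 of 10 (BBC3, 0.60), where 4.87% of all genes tested were called. The family median log2 fold change of 0.13 lay between 0.12 and 0.19 under all alternatives. The count of called genes, 1 in the fit of all 6 libraries, was 0 with upper-quartile factors or a threshold of 0.01, 15 with DESeq2, 172 with the covariate, 702 if both end libraries were dropped, and 0 to 1 with 1 library left out. The log2 fold change of XBP1 was -0.85 with upper-quartile factors (adjusted p = 0.0546), and -0.88 to -0.80 with 1 library left out. Of the 10 members, BCL2L1, MCL1, BCL2L11 and BIK kept their direction under all 17 alternatives. Without both end libraries the sign turned for BCL2 (-0.00029), BAX (0.154), BAK1 (0.0785) and PMAIP1 (-0.0507). The first component and the group cannot be told apart in that fit. With 1 library left out BBC3 ran from -0.207 to 0.407, BID from -0.0691 to 0.139, BAK1 from -0.212 to 0.0252 and BAX from -0.257 to 0.0366. The cause of these turns was not tested. The number of members whose groups do not overlap was 1 of 10, also with TMM-scaled CPM. Beside it stand 5.01% of all genes tested with a gap upwards and 3.74% with a gap downwards. Without both end libraries it was 4 of 10, beside 48.8% of all genes tested. The 5 ratios moved by less than their pooled SD with a pseudocount or with 1 library left out, though 3 of them changed sign with 1 library left out.

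The correlations of the deviations of same-numbered libraries were 0.60, -0.36 and 0.43 for numbers 1, 2 and 3, so numbers 1 and 3 deviated together and number 2 did not. siXBP1 replicate 2 correlated best with siNC replicate 1 and siXBP1 replicate 3 with siNC replicate 2. The first component enters these deviations, so the correlations cannot show whether libraries were paired. The main fit did not take the numbers as pairs. With the replicate number as a block the count of called genes stayed at 1 and that of called members at 0, and XBP1 had -0.84 (adjusted p = 0.0266). BCL2L11 (0.35), PMAIP1 (0.24) and MCL1 (0.19) then had an unadjusted p under 0.05, as had 4.9% of all genes tested. Depth limits BIK most, at 66 counts in its lowest library.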
